A study of Mus musculus with 2 samples.

Results

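The cells described here were tumour endothelial cells that carried transcripts of the capillary genes Cd36, Rbp7 and Cd300lg and few transcripts of the tip, venous or cell cycle genes. A barcode was a member when it passed the filters on quality and endothelial identity, held under 4 unique molecular identifiers (UMIs, each standing for 1 captured RNA molecule) of 5 cell cycle genes, under 4 of the tip genes Apln, Esm1, Angpt2, Dll4, Cxcr4 and Pdgfb, under 3 of the venous genes Ackr1 and Selp, and at least 4 of Cd36, Rbp7 and Cd300lg together. The rule found 94 members among 21580 barcodes, 90 in the WT library and 4 in the knockout library. The members were thus chosen on measured values, and the values of the genes of the rule are given as a description.

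Droplet libraries were made from tumours of mice of C57BL/6 background, 1 library for WT and 1 for Cdh-cre Myct1 fl/fl mice, which the series title spells Cdh5-cre and which are called knockout here. Cdh5 is the gene of vascular endothelial cadherin, so that the recombinase is driven from an endothelial promoter. Tumours of 4 mice were pooled into each library after digestion with collagenase-II, dispase-II and deoxyribonuclease, and the source was labelled endothelial cells. The sources used here name neither the tumour model nor the age of the mice nor any sorting step. With 1 library per genotype, genotype and library cannot be told apart. No p-value is given, and each interval covers counting error only at the 95% level, not the variation between mice or between libraries.

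Of 10880 barcodes in the WT table (median 8725.5 UMIs) and 10700 in that of the knockout library (median 12921), 7820 and 8033 passed the quality filters. Of these, 542 and 302 passed the endothelial limits and 515 and 245 were also outside the cell cycle. Keratin transcripts with few endothelial ones were found in 3759 of the kept WT cells and 6541 of the kept knockout cells. The 2 tables shared 218 barcode sequences, none of them a member's. The WT members had a median of 5029.5 UMIs (827 to 15498) and 505554 UMIs in all, and the knockout members a median of 2222.5 (880 to 4457) and 9782 in all.

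Capillary endothelium is the exchange surface of the circulation. In fat, heart and skeletal muscle it carries fatty acids from the blood to the tissue: Gpihbp1 holds lipoprotein lipase at the luminal surface, Cd36 takes up long-chain fatty acids, and Fabp4 and Fabp5 bind them in the cytoplasm. Rbp7 is a retinol-binding protein of endothelium, and Cd300lg is a surface glycoprotein of capillary and venular endothelium. Gja4 and Gja5 are gap junction genes, Sema3g is a secreted semaphorin and Bmx is a kinase, all used as marks of arterial endothelium. Tip cells lead new sprouts and express Apln, Esm1 and Angpt2.

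The bases upstream of the start of 4 genes are shown because the first pair belonged to the rule and the second pair separated members from one another or from other endothelial cells. They are from RefSeq on GRCm38.p6 and span the 250 bases before the annotated start, 5′ to 3′ on the gene's strand, with capitals for GGAA or its reverse complement TTCC, the core that Ets factors bind.
Cd36, chr5:17835897-17836146, minus strand: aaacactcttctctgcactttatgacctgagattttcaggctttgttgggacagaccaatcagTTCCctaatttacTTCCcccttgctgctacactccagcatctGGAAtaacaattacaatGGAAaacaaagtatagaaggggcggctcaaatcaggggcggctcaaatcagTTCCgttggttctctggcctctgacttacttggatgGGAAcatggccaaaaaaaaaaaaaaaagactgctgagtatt
Rbp7, chr4:149454969-149455218, minus strand: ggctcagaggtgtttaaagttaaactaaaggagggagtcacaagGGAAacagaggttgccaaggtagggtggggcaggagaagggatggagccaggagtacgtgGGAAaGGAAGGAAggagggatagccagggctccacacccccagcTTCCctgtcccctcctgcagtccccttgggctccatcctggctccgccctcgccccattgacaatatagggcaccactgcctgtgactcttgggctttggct
Slco2a1, chr9:103008237-103008486, plus strand: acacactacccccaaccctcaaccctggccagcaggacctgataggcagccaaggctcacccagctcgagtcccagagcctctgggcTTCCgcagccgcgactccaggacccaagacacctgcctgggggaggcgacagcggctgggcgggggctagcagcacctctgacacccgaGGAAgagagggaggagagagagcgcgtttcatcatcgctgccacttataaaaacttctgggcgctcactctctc
Igfbp3, chr11:7213924-7214173, minus strand: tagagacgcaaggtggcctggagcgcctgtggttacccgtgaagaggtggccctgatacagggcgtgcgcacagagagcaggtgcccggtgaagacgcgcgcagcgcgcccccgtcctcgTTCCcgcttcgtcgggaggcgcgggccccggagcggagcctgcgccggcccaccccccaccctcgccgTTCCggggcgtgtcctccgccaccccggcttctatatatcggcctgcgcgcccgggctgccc
The Cd36 stretch held 6 such matches and the Rbp7 stretch 5, against 2 each for Slco2a1 and Igfbp3. Of all 32851 RefSeq promoters of this length, 8.69% held at least 6 and 76.8% at least 2, and 93.4% held at least 1. A match is a string of letters here and not a bound site.

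In the 90 WT members the genes of the gate summed to 4 to 34 UMIs per cell, with a median of 9. Cd36 gave 603 UMIs in 79 cells (1193 CPM, the gene's share of all UMIs summed over the cells of a set). Cd300lg gave 293 UMIs in 84 cells (580 CPM). Rbp7 gave 123 UMIs in 39 cells (243 CPM). All 3 genes were seen together in 33 cells, Cd36 with Cd300lg in 40, Cd300lg alone in 8, and Cd36 alone, Rbp7 with Cd300lg and Cd36 with Rbp7 in 3 each. Cd36 was the most frequent of the 3 in 63 cells, Cd300lg in 20 and Rbp7 in 7. The keratin-positive WT cells, which should lack these genes and had a median of 15758 UMIs, held a Cd36 UMI in 0.585%, an Rbp7 UMI in 0.213% and a Cd300lg UMI in 0.186% of cells.

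The limit of 4 UMIs did not fall in a gap. The 20 WT members with 4 or 5 gate UMIs had 1640 CPM of Gpihbp1 and 643 CPM of Fabp4. The 26 cells with 2 or 3, which met every other limit, had 1818 and 1332 CPM. Aqp1 was at 2908 CPM inside and 1607 CPM outside, and Thbd at 280 and 42.3 CPM.

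**Figure D1:**
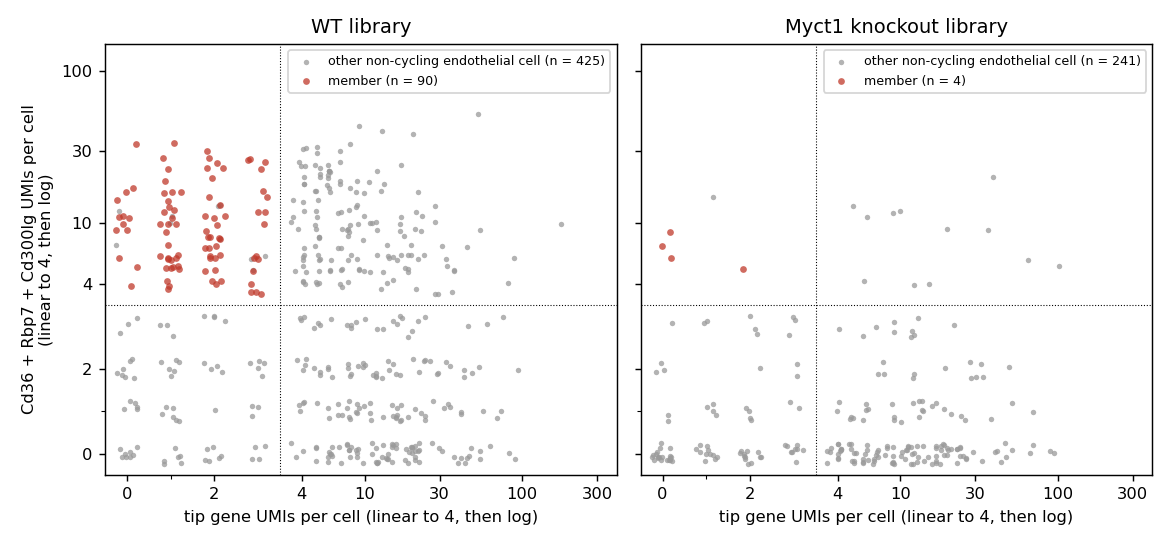
Each point is 1 non-cycling endothelial cell, with its tip gene UMIs on the x axis and its Cd36, Rbp7 and Cd300lg UMIs on the y axis (both linear to 4, then log, with points spread slightly), for the WT library (left, 90 members of 515) and the knockout library (right, 4 members of 245). Dotted lines mark the limits of 4 UMIs, and members are red; grey cells in the upper left of a panel are those past the venous limit.

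Members were 17.5% of the non-cycling endothelial cells of the WT library (90 of 515, exact Clopper-Pearson interval 14.3 to 21.0%) and 1.63% of those of the knockout library (4 of 245, 0.447 to 4.13%). At the WT share the knockout library would have held 42.8. The difference was also seen when every cell was thinned to 3000 UMIs, with 22.5% (110 of 488, 18.9 to 26.5%) against 0.837% (2 of 239, 0.102 to 2.99%). Thinning left out 38 WT and 25 knockout endothelial cells that were shallower, 7 and 3 members among them, and the 2 knockout cells it selected were not among the 4. Cells with at least 4 gate UMIs, whatever their tip or venous UMIs, were 49.5% of the WT cells (255 of 515, 45.1 to 53.9%) and 6.94% of the knockout cells (17 of 245, 4.09 to 10.9%).

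The tip limit took out 155 of these cells in WT and 12 in the knockout library, and the venous limit 10 and 1. The cells past the tip limit made up similar shares of the 2 libraries, 66.8% and 65.7%. Endothelial cells with none of the subtype UMIs past a limit made up 12.04% (62 cells, 9.36 to 15.2%) in WT and 29.4% (72 cells, 23.8 to 35.5%) in the knockout library.

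The gate genes were also lower in the knockout library outside the members. In the 161 knockout tip cells Cd36 was at 73.6 CPM, Cd300lg at 44.6 CPM and Rbp7 at 10.8 CPM. All other knockout endothelial cells together, 241 cells with a median of 6857 UMIs, had 77.0 CPM of Cd36, 48.9 of Cd300lg and 10.6 of Rbp7. The other 425 WT endothelial cells, with a median of 6537 UMIs, had 407, 216 and 87.2 CPM.

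The capillary side of the label was borne out by some markers and not by others. Gpihbp1 was at 1737 CPM in WT members (1624 to 1855) and was seen in 86 of 90 cells. It was nearly as high in the other 425 cells, at 1654 CPM, a log2 ratio of 0.07 (−0.03 to 0.17), and lower in the 19 venous cells, at 454 CPM. Fabp4 and Aqp1 were more than 2-fold higher in members than in the other 425 cells. Against a closer set of cells, described below, Fabp4 was called and Aqp1 was not. Car4, a carbonic anhydrase of capillaries, was at 164 CPM in members and 219 CPM in the others. Timp4, a metalloproteinase inhibitor, gave 2 UMIs in all WT members.

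The arterial side was not borne out. Of the 90 WT members, 75 held no UMI of Gja4, Sema3g, Gja5 or Bmx, 11 held 1 or 2, and 4 held 3 or more, with a highest sum of 14. Gja4 gave 14 UMIs in 6 cells, 27.7 CPM against 33.2 CPM in the other endothelial cells. Sema3g gave 27 UMIs in 10 cells, 53.4 CPM against 23.4 CPM, a log2 ratio of 1.19 (0.50 to 1.85) at a low level. The 3 members with at least 5 UMIs of the arterial sum held 7, 3 and 6 of these 27. Gja5 gave 0 UMIs in members and 31 in the others. Hey1 was at 35.6 against 56.2 CPM, and Efnb2 and Sox17 were at 121 and 138 CPM against 129 and 143 CPM. The cells are therefore called by their genes here, with no arterial name.

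To describe what else the cells expressed, the summed counts of the 90 WT members were set against those of the other 425 WT cells. A gene is called where it reached 100 CPM in 1 of the sets, differed at least 2-fold and had an interval that excluded no difference. Of 1954 genes at that level, 33 (1.69%) were called higher in members and 58 (2.97%) lower, and 3 and 6 of these were genes of the rule. Since the other cells were defined by the same limits, these are descriptions and not tests. The median log2 ratio over all genes with at least 20 UMIs in both sets together was −0.02.

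Genes of lipid and solute transport were among those higher in members. Fabp4 was at 2595 CPM against 959 CPM, a log2 ratio of 1.44 (1.34 to 1.53), and was seen in 76 of 90 cells. Scarb1, a receptor for high-density lipoprotein, was at 698 against 348 CPM (1.01, 0.83 to 1.18). Aqp1, a water channel, was at 2643 against 1299 CPM (1.02, 0.93 to 1.11). Slco2a1, a prostaglandin transporter, was at 1021 against 360 CPM (1.5, 1.35 to 1.66), seen in 72 cells. The keratin-positive cells also had Slco2a1, at 319 CPM. Slc6a6, the taurine transporter, had the largest ratio with 212 against 34.1 CPM (2.63, 2.23 to 3.03). It came from 18 cells. The same 3 members with at least 5 arterial UMIs (sums of 14, 6 and 7) held 9, 25 and 26 of its 107 UMIs, an overlap noticed after the values were seen. Without these 3 cells Slc6a6 had a log2 ratio of 1.48 (0.96 to 1.99) and was no longer called.

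Ly6c1, a surface glycoprotein of microvessels, was at 1733 against 697 CPM (1.31, 1.20 to 1.43) and was seen in 88 cells. Thbd, thrombomodulin, a surface anticoagulant, was at 251 against 82.4 CPM (1.61, 1.29 to 1.92). Ptprg, a receptor tyrosine phosphatase, was at 605 against 248 CPM (1.29). Lrg1, a secreted glycoprotein, was at 2126 against 948 CPM (1.17). Podxl, a sialomucin of the luminal surface, was at 959 against 472 CPM (1.02). Jam2, a junction protein, was at 243 against 113 CPM (1.10).

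Tsc22d3, which glucocorticoids induce, was at 386 against 152 CPM (1.34, 1.09 to 1.58). Lmcd1, a LIM domain protein, was at 142 against 50.2 CPM (1.5, 1.08 to 1.91). Hspb1, a small heat shock protein, was at 437 against 203 CPM (1.11). It was seen in 67 members, of which 1 alone held 48 of its UMIs, and the ratio without that cell was not computed. Igfbp5 was also called, but 102 of its 103 UMIs lay in 1 cell, which carried lymphatic markers.

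Among the genes lower in members were 9 of the tip and sprouting list, 6 of them used by the rule. The rule itself removed cells rich in Angpt2, Cxcr4, Esm1 and Apln. The other cells included the 344 past the tip limit, so genes that run with the tip genes could be lower through the selection. Against cells that also met the tip limit, described below, 0 of 12 tested genes of the tip list were lower. Among genes that the rule did not use, Gal, the neuropeptide galanin, gave 0 UMIs in members and 420 in the other cells, at least 22.4-fold lower. Pgf, placental growth factor, gave 1 UMI against 467, a log2 ratio of −6.22 (−11.5 to −3.74). Bmp2 was at 17.8 against 167 CPM (−3.23). Adm, adrenomedullin, was at 31.7 against 156 CPM (−2.30). Nid2, a basement membrane protein, was at 204 against 420 CPM (−1.04). Fn1 was at 206 against 461 CPM (−1.16), and at 1792 CPM in the keratin-positive cells.

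**Figure D2:**
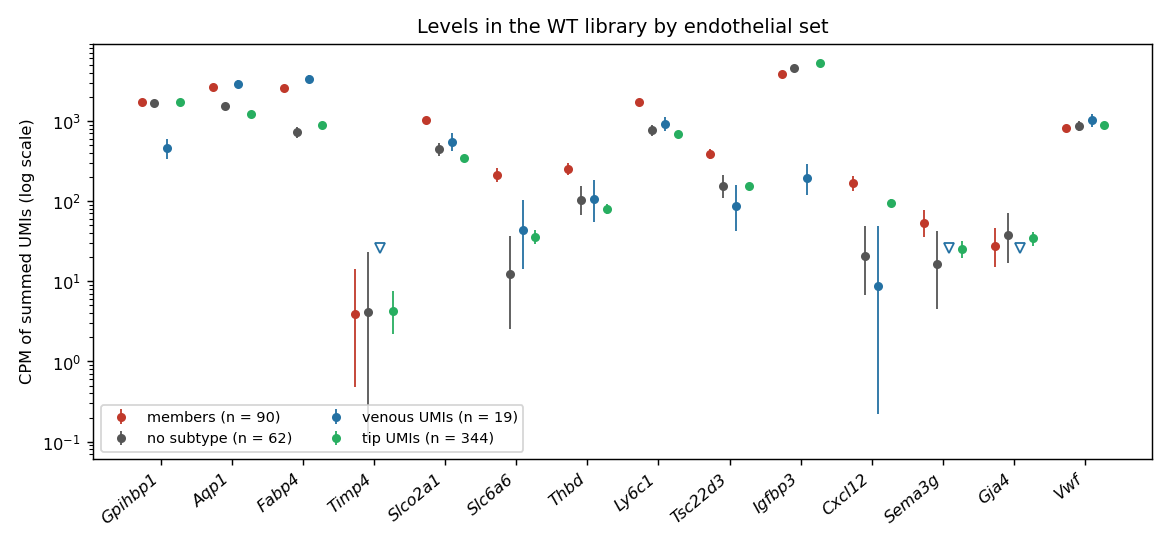
Levels of 14 genes in the WT library are shown as CPM of summed UMIs (log scale) with exact Poisson intervals. The sets are the 90 members, the 62 cells with subtype UMIs under every limit (marked no subtype), the 19 venous cells and the 344 tip cells. Open triangles mark the floor of 3 counts for sets with 0 UMIs. Gpihbp1 stands at 1737 CPM in members and 1702 CPM in tip cells, whereas Slc6a6, Slco2a1, Thbd and Ly6c1 are highest in members.

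The fixed gene lists are given as counts of called genes and medians. Over all 1954 genes at the level for a call, 1.69% were higher and 2.97% lower. A single call in a list is not read as a result about that list. A list gene is measured where both sets together held at least 20 UMIs, so that some measured genes lay under the 100 CPM that a call needs. Of 20 capillary genes measured, 3 were higher (Fabp4, Aqp1 and Ly6c1) and 0 were lower, and the median log2 ratio was 0.44 against −0.02 over all genes. Of 25 arterial genes, 0 were called either way (median −0.05, but 0.39 with cells thinned to 3000 UMIs). Of 13 venous genes, Lrg1 was higher and Cpe lower (−0.06). Of 20 tip and sprouting genes 9 were lower, 6 of them genes of the rule and the others Pgf, Nid2 and Adm (−1.26). At the level for a call were 17 of the capillary, 11 of the arterial, 9 of the venous and 18 of the tip genes.

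Of 26 genes of lipid uptake and handling, 3 were higher, namely Fabp4, Scarb1 and the gate gene Cd36 (median 0.26). Of 19 transport genes, Slc6a6, Slco2a1 and Aqp1 were higher (0.06). Of 10 retinoid genes only the gate gene Rbp7 was higher (−0.00). Of 17 genes induced by glucocorticoids, 1 was higher, Tsc22d3 (0.25). Of 16 genes of flow and quiescence, 1 was higher, Thbd (0.36). Klf2 and Klf4, transcription factors induced by flow, had log2 ratios of 0.54 and 0.40. Genes at the level for a call numbered 10 for lipids, 8 for transport, 3 for retinoids, 10 for glucocorticoids and 11 for flow.

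None of 18 genes for receptors of VEGF, angiopoietin and related factors was called (median 0.40), and 16 of them were on the higher side. Flt1 had a log2 ratio of 0.56 and Kdr one of 0.42. Of 14 Notch genes only Dll4, a gene of the rule, was lower (−0.28). Of 17 basement membrane genes Nid2 and Fn1 were lower (−0.36), while Col4a1 and Col4a2, the chains of type IV collagen, stood at −0.03 and 0.02. Of 26 hypoxia and glycolysis genes 1 was lower, Adm (−0.43), and 21 were on the lower side. None of 25 interferon genes (−0.51) and none of 17 genes of MHC class I and its loading (−0.21) was called. The level for a call was reached by 16 receptor, 7 Notch, 15 basement membrane, 14 hypoxia, 5 interferon and 9 MHC genes.

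Of 12 genes grouped with Acer2, a list chosen with earlier results of these data known, 4 were higher (Slco2a1, Tacr1, Mcf2l and Ptprg) and 2 lower (Arhgap18 and Pde4b), and the list's median was 0.67. Of 17 genes of leukocyte adhesion 1 was lower, Ackr3 (0.06), and of 21 immediate early and stress genes 1 was higher, Hspb1 (−0.20). Of 24 endothelial transcription factors 1 was lower, Bcl6b (0.06). None of 12 RNA quality genes (0.06) and none of 15 proliferation genes (−0.34) was called. In the order of this paragraph, 12, 5, 18, 18, 10 and 3 genes of these lists reached the level for a call.

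**Figure D3:**
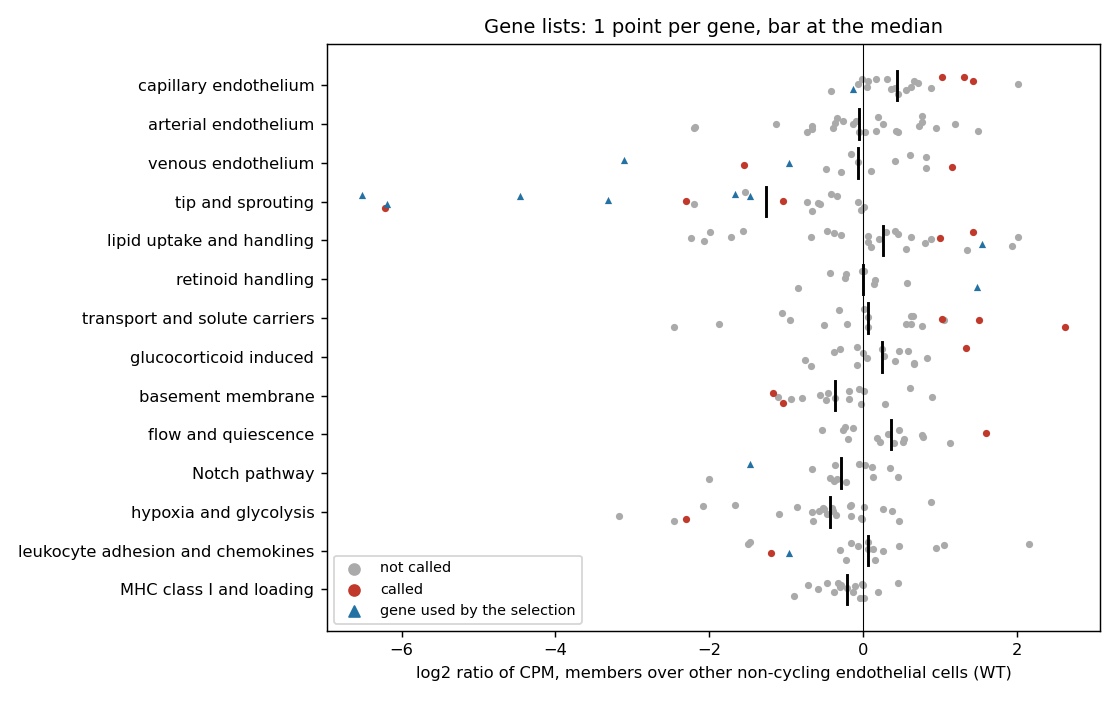
Each point is 1 gene of a list, placed at its log2 ratio of CPM between the 90 WT members and the other 425 WT non-cycling endothelial cells, with a bar at the list's median. Called genes are red, genes used by the selection are blue triangles, and the tip list has the lowest median (−1.26).

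A closer comparison set, chosen after seeing the data, were the 62 WT endothelial cells that met the tip and venous limits but held under 4 gate UMIs. They were shallower than the members, with a median of 3698.5 UMIs per cell against 5029.5, and the gate itself counted UMIs. Of 1981 genes, 45 (2.27%) were higher in members and 44 (2.22%) lower. The median log2 ratio, over genes with at least 20 UMIs in both sets together, was −0.00. Fabp4 was at 2595 against 716 CPM (1.86, 1.63 to 2.09). Slc6a6 gave 107 UMIs against 3, a log2 ratio of 4.09 (2.5 to 6.39), with the same 3 members included. Cxcl12, a chemokine, gave 84 UMIs in 32 members and 5 in 1 of the other cells (3.0, 1.73 to 4.66). Ly6c1 (1.19), Slco2a1 (1.20, 0.90 to 1.52), Thbd (1.28), Tsc22d3 (1.33) and Hspb1 (1.55) were again higher, as were Ptprg and Mcf2l. Aqp1, Scarb1, Lrg1, Podxl, Jam2 and Tacr1, which were higher against the other 425 cells, were not called here. With a gate of 8 UMIs Ly6c1 stood at 0.79 and Slco2a1 at 0.74, and neither was called. Without cells carrying lymphatic or mast cell markers, an alternative chosen after seeing the data, Ly6c1 stood at 0.97 and Slco2a1 at 0.99, both no longer called, while Fabp4 stood at 1.69. Gpihbp1 stood at 0.07.

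Against these cells 2 of 19 capillary genes and 3 of 17 lipid genes were higher and none lower, with medians of 0.58 and 0.47. The capillary genes were Fabp4 and Ly6c1, and the lipid genes were Fabp4, Abcg1 and Cd36, whose call was fixed by the gate. Several other lists had medians nearer that of all genes than against the other 425 cells. The tip (−0.13) and hypoxia (0.02) lists had no called gene. Gbp2 was lower in the interferon list (0.07), and Fn1 and Mmrn1 in that of basement membrane (0.09). Among glucocorticoid-induced genes Tsc22d3 was higher and Lcn2 lower (−0.14). The receptor list stayed at 0.36 and the transport list stood at 0.51. Among genes lower in members were the lymphatic genes Ccl21a, Mmrn1, Reln and Lyve1, and the mast cell genes Tpsb2, Cpa3, Cma1 and Mcpt4, the latter each from 1 cell.

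The WT members were not uniform. Fabp4 ranged from 0 to 387 UMIs per 10,000 with a median of 13.3, and the 10 cells with most Fabp4 UMIs held 53.8% of all 1312. Igfbp3, which binds insulin-like growth factors and was one of the most abundant messages at 3873 CPM, was at 0 UMIs in 20 members and present in 70. Fabp4 had a median of 64.6 UMIs per 10,000 in those 20 cells and of 10.6 in the 70. Fabp4 was 0 in 1 of the 20, the cell with 40 UMIs of lymphatic genes (Lyve1 19, Mmrn1 12), which was left out of what follows.

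**Figure D4:**
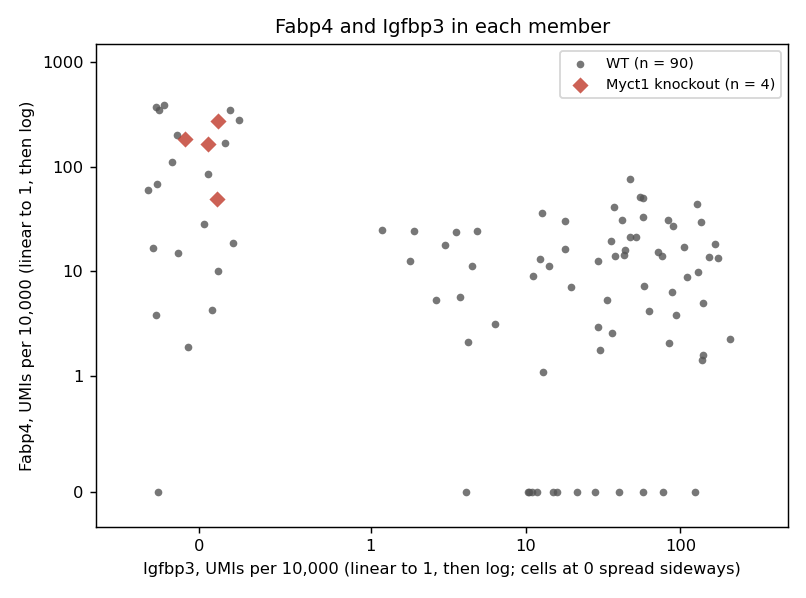
Fabp4 against Igfbp3 in each of the 94 members, as UMIs per 10,000 (linear to 1, then log, with cells at 0 Igfbp3 spread sideways). The 4 knockout members (red diamonds) all lie at 0 Igfbp3, with 49.4 to 273 Fabp4 UMIs per 10,000, and WT members with more than 100 Fabp4 UMIs per 10,000 lie there too.

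The split by Igfbp3 was made after seeing the data and compares 19 with 70 WT members. The 70 had a median of 5246 UMIs per cell. All 20 members without Igfbp3, the left-out cell of 5176 UMIs among them, had a median of 4406. Of 2091 genes, 102 (4.88%) were higher in the cells without Igfbp3 and 89 (4.26%) lower. The median log2 ratio over all genes with at least 20 UMIs in both sets together was −0.04.

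Fatty acid genes were on the side without Igfbp3. Fabp4 was at 8019 against 1334 CPM (2.59, 2.43 to 2.75) and was seen in all 19 cells and in 57 of the 70. Fabp5 gave 48 UMIs in 7 cells against 0, at least 67.1-fold higher. Lpl, lipoprotein lipase, gave 10 UMIs against 2, and was called in only 7 of 12 alternative settings. Apoe, a lipoprotein component, had a log2 ratio of 2.59. Cd36 was at 1867 against 1047 CPM, under 2-fold, and Gpihbp1 went the other way with 1193 against 1884 CPM. Of 17 lipid genes 3 were higher and 1 lower (median 0.48).

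Sema3g gave 16 UMIs, 7 of them in 1 cell, against 11 (2.61, 1.41 to 3.86) and Cxcl12 had a log2 ratio of 1.72. Of 17 arterial genes 6 were higher and 2 lower (median 0.44), the higher ones being Sema3g, Cxcl12, Fbln5, Stmn2, Fbln2 and 8430408G22Rik. The lower ones were Sat1 and Igfbp3, the gene of the split itself. Of 15 genes of MHC class I 3 were higher and 0 lower (median 0.61).

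The cells with Igfbp3 carried more of several other messages. Mt1 and Mt2, metallothioneins that bind zinc, had log2 ratios of −2.68 and −2.66. Fkbp5, a co-chaperone that glucocorticoids induce, stood at −2.96. Insr, the insulin receptor, stood at −1.65, Vwf, von Willebrand factor, at −1.27 and Slco2a1 at −1.0. Flt1, a VEGF receptor, stood at −1.09. Of 15 genes induced by glucocorticoids 0 were higher and 4 lower in the cells without Igfbp3 (median −0.69).

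Igfbp3, Insr, Slco2a1 and Vwf were missing together in some cells. All 4 were at 0 UMIs in 7 WT members, at least 3 of them were at 0 in 12 (without the cell with lymphatic markers), and none was at 0 in 60. These 12 cells held 827 to 5863 UMIs, against a median of 5029.5 over the WT members, and the shallowest WT members were among them. The cells with all 4 genes at 0 held 827, 1434, 1485, 1872, 3098, 4161 and 5863 UMIs. The part of low depth in these zeros was not tested.

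The 4 knockout members can be given cell by cell. They held 880, 1463, 2982 and 4457 UMIs in all. In that order Cd36 gave 6, 5, 6 and 0 UMIs and Cd300lg 0, 2, 3 and 5. Rbp7 gave 0 in each. Fabp4 gave 24, 27, 49 and 22 UMIs, so that it was high in every cell. Gpihbp1 gave 3, 6, 1 and 3. Timp4 gave 2, 6, 0 and 0, Edn1, endothelin, gave 0, 0, 1 and 10, and Sele, the adhesion molecule E-selectin, gave 0, 0, 1 and 4. Igfbp3, Insr, Slco2a1 and Vwf gave 0 UMIs in each of the 4 cells.

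Set against the 90 WT members over the genes in both tables, 170 of 3348 genes (5.08%) were higher in the 4 knockout cells and 39 (1.16%) lower. The median log2 ratio of genes with at least 1000 CPM in WT members was −0.07. A gene with 0 of the 9782 knockout UMIs had a ratio only where its WT level was above that of 3 knockout counts. Over the 3348 genes at the level for a call the median was 0.85. Centred on that median, 50 genes were higher and 188 lower, so the balance of directions is not settled by these cells. The comparison is between 2 libraries, with 4 cells on 1 side.

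Fabp4 was at 12522 CPM in the knockout members and 2633 CPM in the WT members (2.25, 1.97 to 2.52). Per cell the knockout values ran from 49.4 to 273 UMIs per 10,000 with a median of 174, and 14 WT members reached the lowest of them, 11 of which had no Igfbp3 UMI. The 2 groups thus overlapped. Against the 19 WT members without Igfbp3 alone, a comparison added after seeing the data, the Fabp4 log2 ratio was 0.62 (0.33 to 0.90) and was not called. Timp4 gave 8 UMIs against 2 (7.68, 5.35 to 10.9) and Sele 5 against 1 (8.0, 4.84 to 13.6). Edn1 (5.68, 4.33 to 7.02) was higher but came mainly from 1 cell. Hspb1 (2.59, 1.94 to 3.18), Cxcl12 (2.87, 1.86 to 3.75), Lpl (3.68), Fabp5 (2.41), the stress gene Gadd45g (4.09) and the immediate early gene Ier3 (3.16) were also higher. In the knockout members 1 UMI was 102 CPM, so any gene seen there met the limit of 100 CPM. The ratios given here without an interval can therefore rest on few UMIs. Ier3 and Cxcl12 too came mainly from 1 cell each. From the shallowest cell to the deepest, Ier3 gave 0, 3, 23 and 1 UMIs and Cxcl12 gave 1, 2, 0 and 9. Hspb1 gave 8, 10, 4 and 4.

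Igfbp3 was at least 12.8-fold lower, Insr at least 3.70-fold, Slco2a1 at least 3.36-fold, Vwf at least 2.67-fold and Plxnd1, a semaphorin receptor, at least 2.22-fold. Col4a1 (−1.85, −2.86 to −1.01) and Col4a2 (−1.47), Flt1 (−1.87, −3.50 to −0.64), the matrix protein Sparcl1 (−1.81) and Ctla2a (−1.27), a protease inhibitor gene, were lower as well. Cd36 (0.53), Cd300lg (0.80), Gpihbp1 (−0.40), Aqp1 (0.72), Ly6c1 (0.29), Plvap (0.04), Cdh5 (−0.28) and Kdr (−0.91) were not called. Thbd gave 0 UMIs, which at this depth gives no fold.

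Insr, Slco2a1, Vwf and Fabp4 had the same direction in the other endothelial cells of the 2 libraries, and Igfbp3 did not. In the other 241 knockout cells Insr was at 184 CPM against 735 in the other WT cells, Slco2a1 at 68.0 against 360 CPM and Vwf at 421 against 900 CPM. Fabp4 was at 1755 against 959 CPM. Igfbp3, in contrast, was at 5246 CPM in 210 of those 241 knockout cells against 4968 CPM in WT. The difference between members and other cells in these changes was not tested.

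By lists, with 5.08% higher and 1.16% lower over all tested genes, 3 of the 12 lipid genes tested (Fabp4, Fabp5 and Cav1) were higher in the knockout members and 0 lower. Of 19 capillary genes tested 3 were higher (Fabp4, Rgcc and Fabp5) and 2 lower (Sparcl1 and Cd200). Of 14 arterial genes tested 4 were higher (Sox17, Cxcl12, Edn1 and Tm4sf1) and 3 lower (Igfbp3, Sat1 and 8430408G22Rik). Of 15 basement membrane genes tested 4 were lower, Col4a1, Col4a2, Nid1 and Hspg2, and the list summed to 8314 CPM in knockout against 18016 CPM in WT members. The genes grouped with Acer2 summed to 924 against 5310 CPM, with 3 of 12 tested genes lower. Of 19 tested immediate early and stress genes 6 were higher and 1 lower, with 16114 against 10491 CPM.

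Which knockout cells were counted decided several of these values. With a gate of 4 UMIs per 10,000 in place of 4 UMIs, 13 knockout cells (5.31%) and 22.1% of the WT cells were members, and 8 of the 13 held Igfbp3 UMIs. With cells thinned to 3000 UMIs, the 2 cells chosen gave a Fabp4 log2 ratio of −0.32 and an Igfbp3 ratio of 0.83, both turned in direction. Set against the WT members without Igfbp3 alone, 105 genes were higher and 19 lower. Of the 23 genes selected for naming by size that could be compared there, 12 kept their call and 11 lost it, among them Fabp4, Insr, Slco2a1, Vwf, Plxnd1, Col4a2, Flt1, Sparcl1 and Ctla2a. Timp4, Sele, Edn1, Hspb1, Cxcl12 and Col4a1 kept it.

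**Figure D5:**
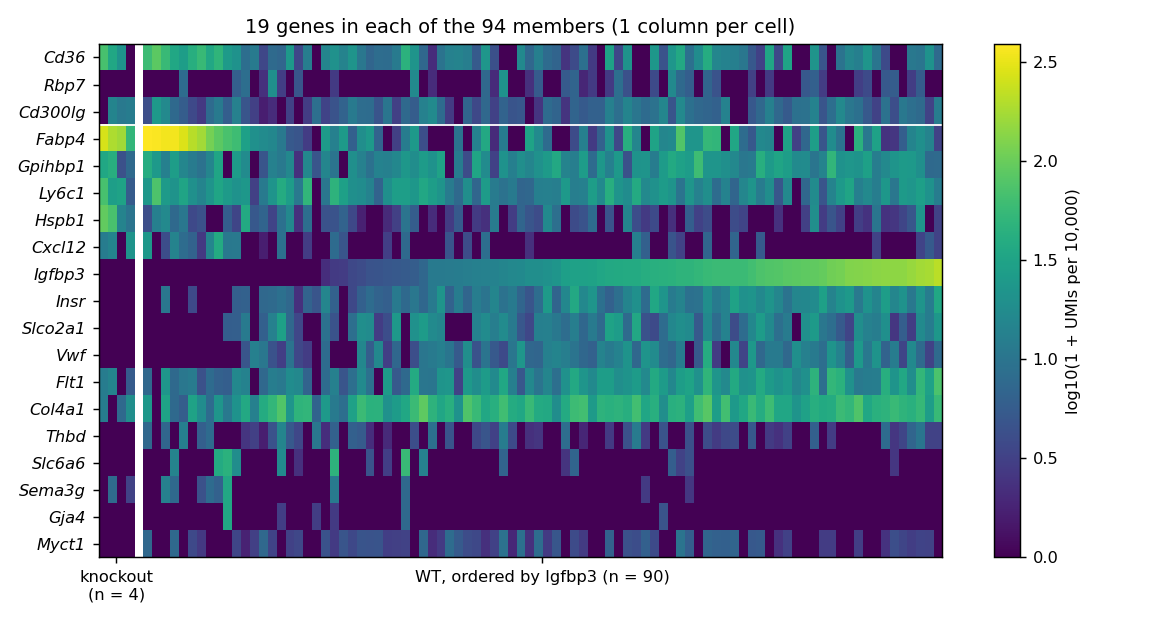
UMIs per 10,000 (colour, as log10 of 1 plus the value) of 19 genes in each of the 94 members, 1 column per cell, with the 4 knockout cells at the left and the 90 WT cells ordered by Igfbp3. Fabp4 is brightest in the knockout cells and in the WT cells at the left end, where Igfbp3, Insr, Slco2a1 and Vwf are dark. Myct1, absent from the list of genes of the knockout library, is drawn at 0 there.

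Myct1, the deleted gene, which encodes a membrane protein of endothelium, gave 123 UMIs in 63 of the 90 WT members, 243 CPM (202 to 290). The other WT endothelial cells had 237 CPM and the keratin-positive cells 0.22 CPM. Myct1 had no line in the knockout table, so no value can be given for its 4 members, and the sources used here do not name the floxed exon.

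Markers of other cell types were low when summed over the WT members. Mural markers summed to 127 CPM with Rgs5, Cspg4, Acta2 and Myh11 at 0, against 364 CPM in the other WT endothelial cells. Fibroblast markers summed to 259 against 480 CPM. Keratin markers summed to 49.5 against 61.6 CPM, and macrophage markers to 33.6 against 66.3 CPM, with Csf1r, Adgre1 and Ptprc at 0. Lymphatic markers summed to 265 against 551 CPM with Prox1 at 0, and 1 member held at least 5 of these UMIs. Red cell genes summed to 35.6 CPM in members and to 694 CPM in the others. In the 4 knockout members mural and fibroblast markers gave 2 UMIs each, lymphatic markers 1 and the other lists 0.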

How the data were processed

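Single-cell RNA was captured with a version 1 Chromium 3′ kit, per the labels' protocols, and Cell Ranger 2.1.1 and mm10 are named in the submitters' processing notes. For each library the authors deposited a table of UMI counts. The smallest row maximum in them was 4 UMIs, so rarer genes were taken as left out. Members and gene lists were chosen with earlier results of these data known.

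Cells with at least 500 genes and at most 10% mitochondrial UMIs were kept. Endothelial cells had at least 20 UMIs per 10,000 of Cdh5, Egfl7, Esam, Emcn, Plvap and Cd93, at most 4 of Krt8 and Krt18 and under 50 of Col1a1, Col1a2 and Col3a1. Cell cycle genes were Top2a, Mki67, Birc5, Ube2c and Cdk1. Counts were summed over cells and scaled to CPM, with exact Poisson intervals for levels and exact conditional binomial intervals for ratios. A set at 0 was put at a floor of 3 counts. Knockout and WT members were compared over the 9127 shared symbols. Text genes were the markers, the rule's genes, the 12 each way with the interval bound farthest from 0, up to 5 extreme genes per list, and Myct1. Genes in the comparison with cells of no subtype, in the split by Igfbp3 and in the cell-by-cell account were chosen after their values were seen. Genes over 3 times higher in keratin-positive cells are given with that level. Scrublet scored 1 WT member and 0 knockout members over 0.3, and none was removed. The ratios were tested on simulated counts. Of 10 symbols looked up for promoters, 5 matched. The tools were scanpy 1.11.5, scipy 1.17.1, pandas 2.3.3 and numpy 2.4.6 under Python 3.11.15.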

Additional observations from a re-analysis of the deposited data

How the results depend on the processing

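No paired analysis was possible because each genotype had 1 library and no replicate numbers. Leaving out a replicate was not possible for the same reason, and the comparison along arterial UMIs was not run, since under 10 cells lay at its high end. The share of members in WT was 10.1% with a gate of 8 UMIs, 22.1% with 4 per 10,000 and 22.5% when thinned, and in the knockout library 0.408% and 5.31% with the first 2 of these. The WT share was above the knockout share in each.

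Against other WT cells, 60 genes were higher and 119 lower from 50 CPM, and 169 and 300 with no filter, where the list genes lower were 21 and 30. Some list medians moved as well. When thinned, the median was 0.39 for arterial, −0.92 for tip, 0.00 for interferon, −0.56 for leukocyte adhesion, 0.17 for immediate early and 0.44 for transport genes. The capillary median was 0.19 with a mitochondrial limit of 5%, and the venous one −0.34 with a gate of 8 UMIs. Against cells with no subtype, 22 and 26 were called with a gate of 8 UMIs, 71 lower with 4 per 10,000, 84 and 88 with a mitochondrial limit of 5%, 89 and 144 from 50 CPM, and 128 and 264 with no filter. In the split by Igfbp3, 182 were higher from 50 CPM and 195 with no filter.

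Knockout against WT members gave 78 and 11 with a gate of 8 UMIs, which leaves 1 knockout cell (19 and 5 list genes), 219 lower with 4 per 10,000 (57), 97 and 8 when thinned, with 2 knockout cells (14 and 5), 50 and 188 when centred on the median ratio (16 and 55), 52 and 183 relative to genes of like transcript length (15 and 55), 97 and 14 for members with 0 arterial UMIs, with 2 knockout cells (4 list genes lower), and 105 and 19 against WT members without Igfbp3 (5). Reversed log2 ratios were Igfbp5 at −4.46 with a gate of 8 UMIs, −2.65 thinned and −4.50 without the member with lymphatic markers; Ccl21a at 2.39 with 4 per 10,000; and, knockout against WT, Ctla2a at 0.76 with 4 per 10,000 and 1.49 thinned, Fabp4 at −0.32 and Igfbp3 at 0.83 thinned. In the split by Igfbp3, Stmn2 stood at −0.42 when thinned. The alternatives without the member with lymphatic markers, without members with arterial UMIs and against WT members without Igfbp3 were chosen after seeing the data. Fewer cells or genes enter most of these alternatives, and the cause was otherwise not tested. With 9782 UMIs in the knockout members, a gene at 0 there could still have reached 307 CPM.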
